A study of Rattus norvegicus with 20 samples.

Results

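The hydrolases of rat liver described here are the carboxylesterases Ces2c and Ces1d, the paraoxonases Pon1, Pon2 and Pon3, the arylacetamide deacetylase Aadac and the hepatic lipase Lipc. A probe set, a group of array probes for 1 transcript, was taken where the annotation of the array gave it exactly 1 of these symbols. All 7 genes were found, of 14217 symbols measured, on 8 of 31042 probe sets, since Pon1 has 2. Livers came from male Harlan Sprague-Dawley rats gavaged once daily for 4 days with IDDP in corn oil. IDDP, or isodecyl diphenyl phosphate, is a plasticiser and flame retardant of the organophosphate ester class. The doses were 66, 132, 263.6, 527.1 and 1054.2 mg per kg body weight, each given to 3 rats, the top one being 2.7 mmol/kg, and 5 control rats had corn oil alone. Tissue of the left lobe was taken on day 5, and 100 ng of total RNA from each rat went on 1 Affymetrix array. The age of the rats is not given in the sources used here.

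Carboxylesterases are serine hydrolases of the endoplasmic reticulum that cleave ester drugs, pesticides and stored lipids, and liver is a main site of their expression. Paraoxonases are calcium-dependent lactonases, and PON1, carried in blood on high-density lipoprotein (HDL), also hydrolyses the oxon forms of some organophosphate insecticides. Hepatic lipase is secreted by hepatocytes and cleaves triglycerides and phospholipids of HDL and remnant particles. Genes of drug metabolism, some carboxylesterases among them, are induced in rodent liver through the nuclear receptors CAR (Nr1i3) and PXR (Nr1i2).

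Only 3 of the 7 genes passed the test at any dose, and their start-site regions are shown because these are the members whose RNA changed. Each window runs from 250 bases before to 50 bases after the start of the RefSeq gene, 5′ to 3′ on the strand of the gene, in assembly GRCr8. Capitals mark AGGTCA or AGTTCA, on either strand, the elements from which the binding sites of many nuclear receptors are built. The window of Ces2c is chr1:270376951-270377250 on the plus strand, that of Ces1d chr19:30046244-30046543 on the plus strand and that of Lipc chr8:80516236-80516535 on the minus strand.
Ces2c: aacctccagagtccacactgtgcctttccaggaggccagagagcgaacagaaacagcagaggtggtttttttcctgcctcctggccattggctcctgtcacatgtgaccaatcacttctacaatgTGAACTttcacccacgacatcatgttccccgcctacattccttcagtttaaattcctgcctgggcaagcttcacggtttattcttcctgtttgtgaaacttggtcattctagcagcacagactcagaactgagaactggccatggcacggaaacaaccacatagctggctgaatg
Ces1d: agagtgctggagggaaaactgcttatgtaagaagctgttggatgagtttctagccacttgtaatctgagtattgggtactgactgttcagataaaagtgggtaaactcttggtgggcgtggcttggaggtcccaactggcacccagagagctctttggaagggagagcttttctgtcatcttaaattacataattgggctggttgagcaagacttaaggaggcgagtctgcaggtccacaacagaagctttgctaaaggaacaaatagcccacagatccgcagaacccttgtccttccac
Lipc: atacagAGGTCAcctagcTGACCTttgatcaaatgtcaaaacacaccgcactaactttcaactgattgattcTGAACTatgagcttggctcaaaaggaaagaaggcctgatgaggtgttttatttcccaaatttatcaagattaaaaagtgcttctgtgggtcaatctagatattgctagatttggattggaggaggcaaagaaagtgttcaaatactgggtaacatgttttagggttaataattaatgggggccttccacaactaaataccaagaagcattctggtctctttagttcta
The window of Ces2c held 1 AGTTCA, on the reverse strand 125 bases upstream of the start, that of Lipc held 2 AGGTCA and 1 AGTTCA, and that of Ces1d held neither. Among 27457 windows of the same length in that table, AGGTCA occurred in 15.7% and AGTTCA in 14.4%. AGTTCA was also found in the windows of Pon2 and Aadac. These matches describe letters and show no binding.

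In GRCr8 the paraoxonase genes lie side by side on chromosome 4 in the order Pon1, Pon3, Pon2. Ces1d lies on chromosome 19 between Ces1e and Ces1c, and Ces2c lies on chromosome 1 next to Ces2i. The same annotation names a pair of Ces2c pseudogenes, Ces2c-ps1 and Ces2c-ps2, and a Ces1d-like gene, Ces1dl1. The probe sequences were not used here, so a share of the Ces2c or Ces1d signal that came from such copies was not measured.

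Ces2c was the member that moved most, and its mean level was higher at each higher dose, reaching 12.2 times the control level at 1054.2 mg/kg. On the log2 scale of the arrays it read 8.76, 8.92, 8.75, 8.87 and 8.82 in the 5 control rats. It read 9.34, 9.67 and 9.65 at 66 mg/kg, 10.76, 10.11 and 10.42 at 132 mg/kg, and 11.68, 10.99 and 11.05 at 263.6 mg/kg. It read 11.35, 11.57 and 11.24 at 527.1 mg/kg and 12.08, 12.36 and 12.84 at 1054.2 mg/kg. Every treated rat lay above every control rat, and the dose groups overlapped only between 263.6 and 527.1 mg/kg.

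**Figure D1:**
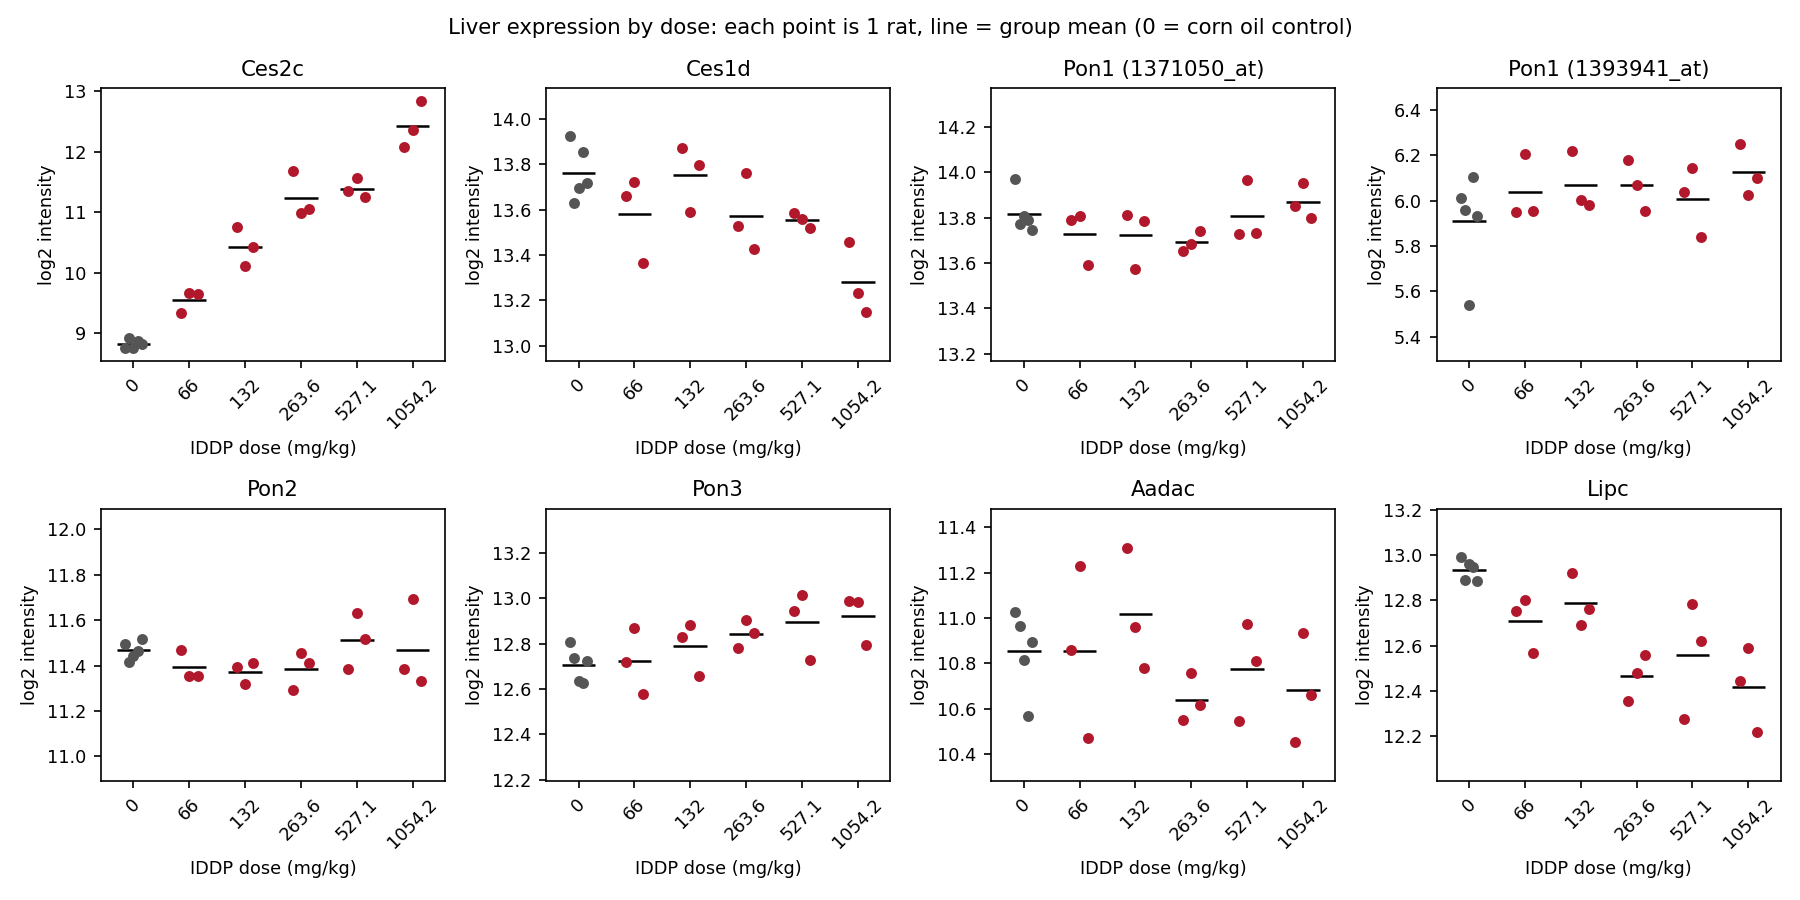
Log2 intensity (vertical axis) of the 8 probe sets against IDDP dose in mg/kg (horizontal axis, 0 being the corn oil control), with 1 point per rat and a line at the mean of each group. Each panel has its own vertical range. Ces2c climbs from group to group to 12.43 at 1054.2 mg/kg, Lipc and Ces1d are lowest at that dose, and the paraoxonases and Aadac stay near their control means.

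Relative to the controls, the log2 change of Ces2c was 0.72 ± 0.17 (SE) at 66 mg/kg, 1.60 ± 0.17 at 132, 2.42 ± 0.17 at 263.6, 2.56 ± 0.17 at 527.1 and 3.60 ± 0.17 at 1054.2 mg/kg. In linear terms the lower 4 doses gave 1.65, 3.04, 5.33 and 5.90 times the control level. In limma's test, adjusted over all probe sets, the rise passed the threshold of 0.05 from 132 mg/kg upward (adjusted p = 0.000161, 2.75e-07, 4.72e-08 and 1.65e-10 at the 4 higher doses) and missed it at 66 mg/kg (adjusted p = 0.645). At 66 mg/kg it passed when the spread came from the 8 arrays of these groups alone (adjusted p = 0.0209). No other probe set on the array had a larger rise at 1054.2 mg/kg.

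Between neighbouring doses, Ces2c was 0.88 (95% interval 0.48 to 1.28) higher at 132 than at 66 mg/kg on the log2 scale. It was 0.81 (0.41 to 1.21) higher at 263.6 than at 132 mg/kg, 0.15 (-0.25 to 0.55) higher at 527.1 than at 263.6 mg/kg, and 1.04 (0.64 to 1.44) higher at 1054.2 than at 527.1 mg/kg. The order of levels therefore followed dose, with the means at 263.6 and 527.1 mg/kg not separated by their spread. None of these 4 steps passed after adjustment over all probe sets (adjusted p = 0.991, 0.369, 0.957 and 0.0752), in contrasts where 0%, 0%, 0% and 0.0129% of all probe sets passed. Of the 8 probe sets limma called 0 at each step, with 1, 3, 0 and 2 at an unadjusted p under 0.05, where 3.88%, 9.31%, 5.83% and 6.08% of all probe sets lay under it. The step to 1054.2 mg/kg passed without 1054.2 mg/kg replicate 1 (1.22, adjusted p = 0.0421). The slope over the rank of the dose, from 0 for control to 5, was 0.70 ± 0.03 log2 per step (adjusted p = 3.04e-12).

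Ces1d, which in mouse encodes a hydrolase of stored triglyceride used for lipoprotein assembly, fell at the highest dose. Its log2 intensity was 13.46, 13.23 and 13.15 at 1054.2 mg/kg, against 13.92, 13.63, 13.70, 13.85 and 13.72 in controls. All 3 treated rats lay below the lowest control. The change was -0.48 ± 0.11 (SE; adjusted p = 0.0145), a fall to 0.715 of the control level. Below that dose it read 13.66, 13.72 and 13.36 at 66 mg/kg, 13.87, 13.59 and 13.80 at 132, 13.53, 13.76 and 13.43 at 263.6, and 13.58, 13.56 and 13.52 at 527.1 mg/kg. Only the group at 527.1 mg/kg among these lay wholly below the controls. The changes at these doses were -0.18 ± 0.11 at 66, -0.01 ± 0.11 at 132, -0.19 ± 0.11 at 263.6 and -0.21 ± 0.11 at 527.1 mg/kg, none past the threshold. The slope per dose rank was -0.08 ± 0.02 (adjusted p = 0.0233), a call lost without control replicate 1 or 4 or 1054.2 mg/kg replicate 2 or 3 (adjusted p = 0.0567 to 0.0881). The call at 1054.2 mg/kg was lost without replicate 2 (adjusted p = 0.0720) or replicate 3 (0.113) of that dose.

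The genes on either side of Ces1d, both carboxylesterases of the same family, did not pass at 1054.2 mg/kg. Ces1e averaged 11.05 ± 0.05 (SD, n = 3) at 1054.2 mg/kg and 10.79 ± 0.03 (SD, n = 5) in controls, a change of 0.26 ± 0.10 (SE; adjusted p = 0.191). Ces1c averaged 13.95 ± 0.09 (SD, n = 3) at 1054.2 mg/kg and 13.84 ± 0.05 (SD, n = 5) in controls, a change of 0.11 ± 0.08 (SE; adjusted p = 0.568). Whether these changes differ from that of Ces1d was not tested.

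Lipc, the hepatic lipase gene, also fell. It read 12.44, 12.59 and 12.22 at 1054.2 mg/kg, against 12.99, 12.89, 12.96, 12.95 and 12.88 in controls, a change of -0.52 ± 0.11 (SE; adjusted p = 0.00974) or 0.699 of the control level. Below that dose it read 12.76, 12.80 and 12.57 at 66 mg/kg, 12.92, 12.69 and 12.76 at 132, 12.35, 12.48 and 12.56 at 263.6, and 12.28, 12.78 and 12.62 at 527.1 mg/kg. The only treated rat within the range of the controls was 132 mg/kg replicate 1.

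Relative to controls, the difference of Lipc was -0.23 ± 0.11 at 66, -0.15 ± 0.11 at 132, -0.47 ± 0.11 at 263.6 and -0.37 ± 0.11 at 527.1 mg/kg, and none of these passed (adjusted p = 1, 0.534, 0.0573 and 0.0886). The value at 263.6 mg/kg passed in 5 of 10 alternative settings. Among the 10, the added 1.5-fold limit could only drop calls of the main fit, so it could not add this one. The slope per dose rank was -0.10 ± 0.02 (adjusted p = 0.00267). Between neighbouring doses Lipc differed by 0.08 (95% interval -0.17 to 0.33) for 132 against 66 mg/kg. For 263.6 against 132 mg/kg it differed by -0.33 (-0.58 to -0.07, adjusted p = 0.483). From 263.6 mg/kg upward the neighbouring doses did not differ beyond their spread. The values were 0.10 (-0.16 to 0.35) for 527.1 against 263.6 mg/kg and -0.14 (-0.39 to 0.11) for 1054.2 against 527.1 mg/kg. The call at 1054.2 mg/kg was lost without replicate 3 of that dose (adjusted p = 0.0977).

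**Figure D2:**
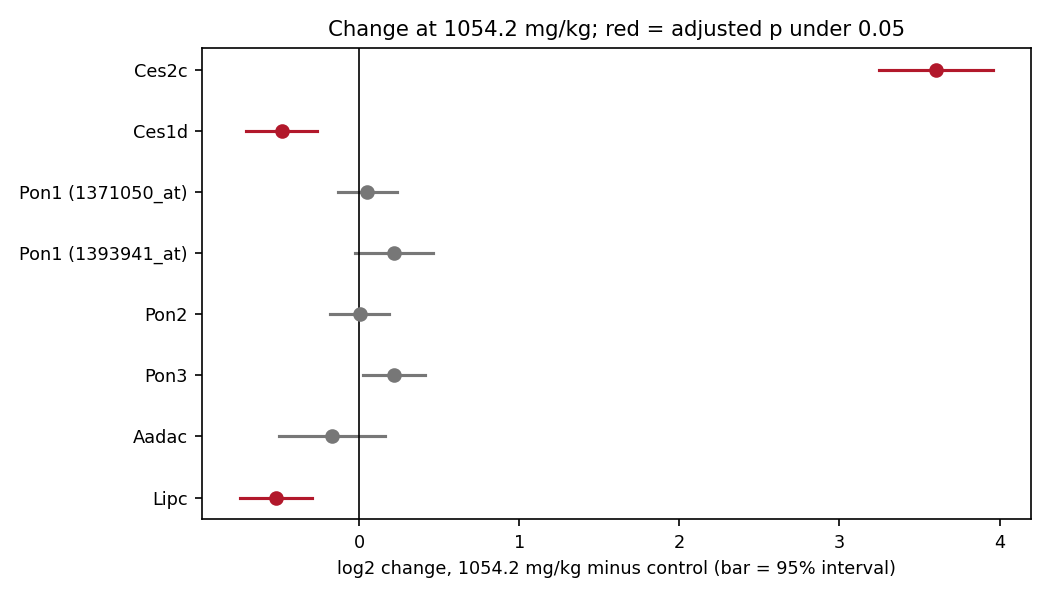
Log2 change at 1054.2 mg/kg minus control (horizontal axis) for each of the 8 probe sets (rows), with bars for the 95% interval of the fit. Points past the threshold are red. Ces2c stands at 3.60, Ces1d and Lipc at -0.48 and -0.52, and the other 5 probe sets between -0.17 and 0.22.

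The paraoxonases did not pass at any dose. Pon1, the serum paraoxonase, read 13.85, 13.95 and 13.80 at 1054.2 mg/kg, against 13.97, 13.77, 13.80, 13.79 and 13.74 in controls, on its brighter probe set (1371050_at). The groups overlapped, and the change was 0.05 (95% interval -0.13 to 0.24, adjusted p = 0.860), an interval that runs in linear terms between -8.81% and 17.7%. Across the lower doses its change ran between -0.12 at 263.6 and -0.01 at 527.1 mg/kg. The other Pon1 probe set (1393941_at) was dim, with a mean of 6.02 below the median of 6.37 over all probe sets, and stood at 0.22 (-0.03 to 0.46, adjusted p = 0.413) relative to controls at 1054.2 mg/kg.

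Pon2, a paraoxonase that stays inside cells, read 11.39, 11.69 and 11.33 at 1054.2 mg/kg, around the controls at 11.49, 11.42, 11.44, 11.46 and 11.52. Its change was 0.00 (-0.18 to 0.19, adjusted p = 0.995), and its SD was 0.20 (n = 3) at 1054.2 mg/kg and 0.04 (n = 5) in controls. Pon3, found like PON1 on HDL in blood, read 12.99, 12.99 and 12.79 at 1054.2 mg/kg, against 12.81, 12.74, 12.64, 12.63 and 12.72 in controls. A single treated rat of the 3 lay within the range of the controls. Its change was 0.02 at 66, 0.09 at 132, 0.14 at 263.6, 0.19 at 527.1 and 0.22 (0.03 to 0.41, adjusted p = 0.244) at 1054.2 mg/kg. The slope of Pon3 per dose rank was 0.05 ± 0.01 (adjusted p = 0.0592), and it passed in 5 of 8 alternative settings.

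Aadac, an esterase of the endoplasmic reticulum membrane that removes acetyl groups from drugs, varied more between rats than the paraoxonases, with an SE of its change of 0.16, against 0.09 for each bright paraoxonase probe set. It read 10.45, 10.93 and 10.66 at 1054.2 mg/kg, against 11.03, 10.97, 10.82, 10.57 and 10.90 in controls. The groups overlapped at every dose. Its change was -0.17 (-0.50 to 0.16, adjusted p = 0.695) at 1054.2 mg/kg and lay between -0.21 at 263.6 and 0.16 at 132 mg/kg at the lower doses.

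Counted over the 8 probe sets, 1 rose and 2 fell at 1054.2 mg/kg, where 3.30% of all probe sets passed. The count was 1 with only Ces2c without replicate 3 of that dose. At 132, 263.6 and 527.1 mg/kg 1 of 8 passed, Ces2c each time, where 0.0677%, 0.428% and 1.68% of all probe sets passed. At 66 mg/kg limma called 0 of 8, with 2 at an unadjusted p under 0.05 (Ces2c and Lipc), where 0.00644% of all probe sets passed and 3.24% lay under the unadjusted value. For the trend 3 of 8 passed (Ces2c, Ces1d and Lipc), where 5.05% of all probe sets did, and the count was 2 to 4 with 1 array left out. From the lowest dose upward 2, 2, 3, 3 and 3 of the 8 had a dose group that did not overlap with the controls, beside 4.59%, 8.17%, 9.00%, 11.9% and 12.4% of all probe sets. These were Ces2c at each dose, Lipc at each dose but 132 mg/kg, Ces1d at 527.1 and 1054.2 mg/kg, Pon2 at 132 mg/kg and Pon1 at 263.6 mg/kg, the last 4 below the controls. The median change of the 8 at 1054.2 mg/kg was 0.03, beside -0.005 over all probe sets.

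The genes whose 5 changes from control were nearest to those of each changed member were found by the root mean square (RMS) difference over the 5 dose groups. Nearest to Ces2c were Abcc3, an efflux transporter of organic anions (0.19 log2), the glutathione transferase Gsta3 (0.45), the clock-driven transcription factor Dbp (0.79) and the aldehyde reductase Akr7a3 (0.91). Abcc3 changed by 1.07, 1.72, 2.36, 2.66 and 3.42 in the order of rising dose, against 0.72, 1.60, 2.42, 2.56 and 3.60 for Ces2c. Nearest to Ces1d were Car3 (0.03), Cyp4f6 (0.06), Sult1c3 (0.06) and Car5b (0.06), of which Cyp4f6 and Sult1c3 passed at 1054.2 mg/kg. Nearest to Lipc were Sema6d (0.05), the glutamine synthetase gene Glul (0.05), Ppp1r3d (0.06) and Dynlt3 (0.06), of which Dynlt3 passed at 1054.2 mg/kg. All these changes share the same controls.

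**Figure D3:**
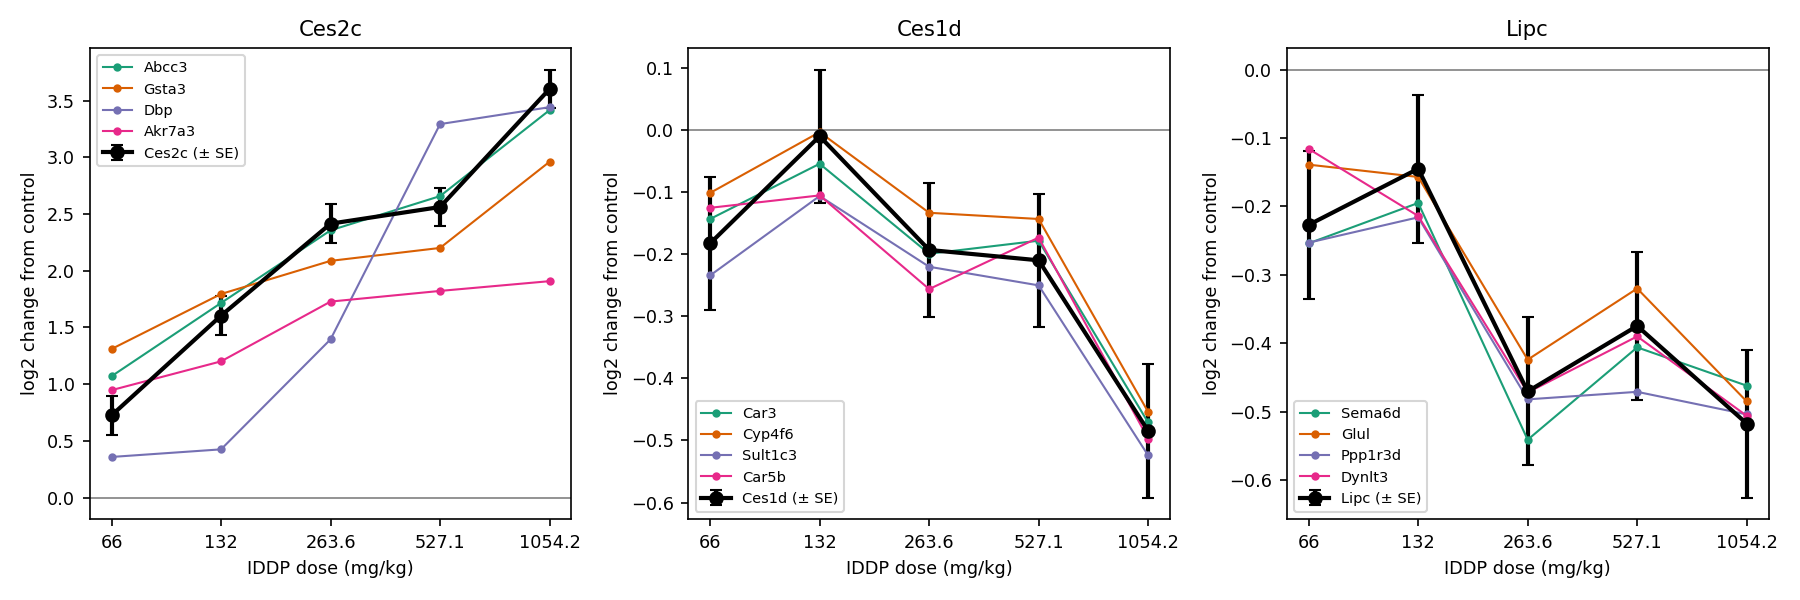
Log2 change from control (vertical axis) at each IDDP dose in mg/kg (horizontal axis) for Ces2c, Ces1d and Lipc (black, bars are SE) and for the 4 genes of nearest pattern in each case (thin coloured lines, without error bars). The vertical ranges differ between panels. The line of Abcc3 lies nearest to that of Ces2c, with 3.42 beside 3.60 at 1054.2 mg/kg.

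Related genes were read from lists, each gene from its brightest probe set, where 4.83% of all 14217 genes passed at 1054.2 mg/kg and 19.4% had an unadjusted p under 0.05. Of 20 other carboxylesterases listed, only 3 had a probe set with exactly 1 symbol (Ces1c, Ces1e and Ces5a). None of these is a Ces2 gene, so the nearest relatives of Ces2c were not read. Of these 3, limma called 0 at each dose, with 1 at an unadjusted p under 0.05 at 1054.2 mg/kg. Their median change there was 0.11. Ces5a, at 5.55 in treated rats and 5.46 in controls, was dimmer than the median probe set. Of 24 other lipases and esterases 1 fell and 23 did not pass at 1054.2 mg/kg, with a median of 0.02. An unadjusted p under 0.05 was found there for 11 of the 24, beside 19.4% of all genes. The one that fell was Rgn, a gluconolactonase of ascorbate synthesis (-0.42 ± 0.10, adjusted p = 0.0226, or 0.184 without 1054.2 mg/kg replicate 3). Larger changes missed the threshold, the largest being Ephx2 (1.43 ± 0.44, adjusted p = 0.0878), Nceh1 (0.82 ± 0.26, 0.0988) and Lpl (-0.63 ± 0.18, 0.0566). The SD of Ephx2 was 1.81 (n = 3) at 1054.2 mg/kg and 0.24 (n = 5) in controls.

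Of 20 HDL and lipoprotein partners 3 fell and 17 did not pass at 1054.2 mg/kg, with a median change of -0.12. An unadjusted p under 0.05 was found there for 10 of the 20, beside 19.4% of all genes. The 3 were Angptl4, which inhibits lipoprotein lipase (-1.57 ± 0.24, adjusted p = 0.000723), the apolipoprotein gene Apoa4 (-1.43 ± 0.21, adjusted p = 0.000493) and Pltp, which transfers phospholipid to HDL (-0.77 ± 0.14, adjusted p = 0.00409). Apoa1, which encodes the main protein of HDL, stood at 0.14 ± 0.08 (adjusted p = 0.432), and Lcat, which esterifies HDL cholesterol, by -0.24 ± 0.08 (adjusted p = 0.105).

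Of 26 targets of CAR and PXR listed, 19 were measured. At 1054.2 mg/kg 13 of these rose and 6 did not pass, with a median change of 1.06, beside 0.00 over all genes. The 6 were Cyp2b3, Cyp3a2, Cyp3a9, Por, Gstm1 and Gstm3, with changes between -0.51 (Cyp3a9) and 0.77 (Por). From the lowest dose upward 1, 5, 7, 9 and 13 of the 19 had risen, where 0.0141%, 0.106%, 0.668%, 2.60% and 4.83% of all genes passed in either direction. Beside Abcc3, Gsta3 and Akr7a3, the largest rises were in the reductase gene Akr1b7 (2.23 ± 0.24), the efflux pump gene Abcb1a (1.60 ± 0.13) and the cytochrome P450 gene Cyp3a23-3a1 (1.40 ± 0.11). This list was drawn up with its rise in these rats known. Of 15 regulators, transcription factors and their partners, limma called 0 at each dose, with 3 at an unadjusted p under 0.05 at 1054.2 mg/kg, beside 19.4% of all genes. Relative to controls, the receptor genes stood at 0.39 ± 0.28 (Nr1i3, adjusted p = 0.584) and -0.20 ± 0.10 (Nr1i2, adjusted p = 0.350) at 1054.2 mg/kg. The largest change at that dose was that of Nr0b2 (0.55 ± 0.34, adjusted p = 0.512), which ran between 0.31 without 1054.2 mg/kg replicate 1 and 0.91 without 1054.2 mg/kg replicate 2. Nr0b2 stood at -1.21, -0.72, -0.94 and 0.49 relative to controls at 66, 132, 263.6 and 527.1 mg/kg, so its values had no single direction over the doses.

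**Figure D4:**
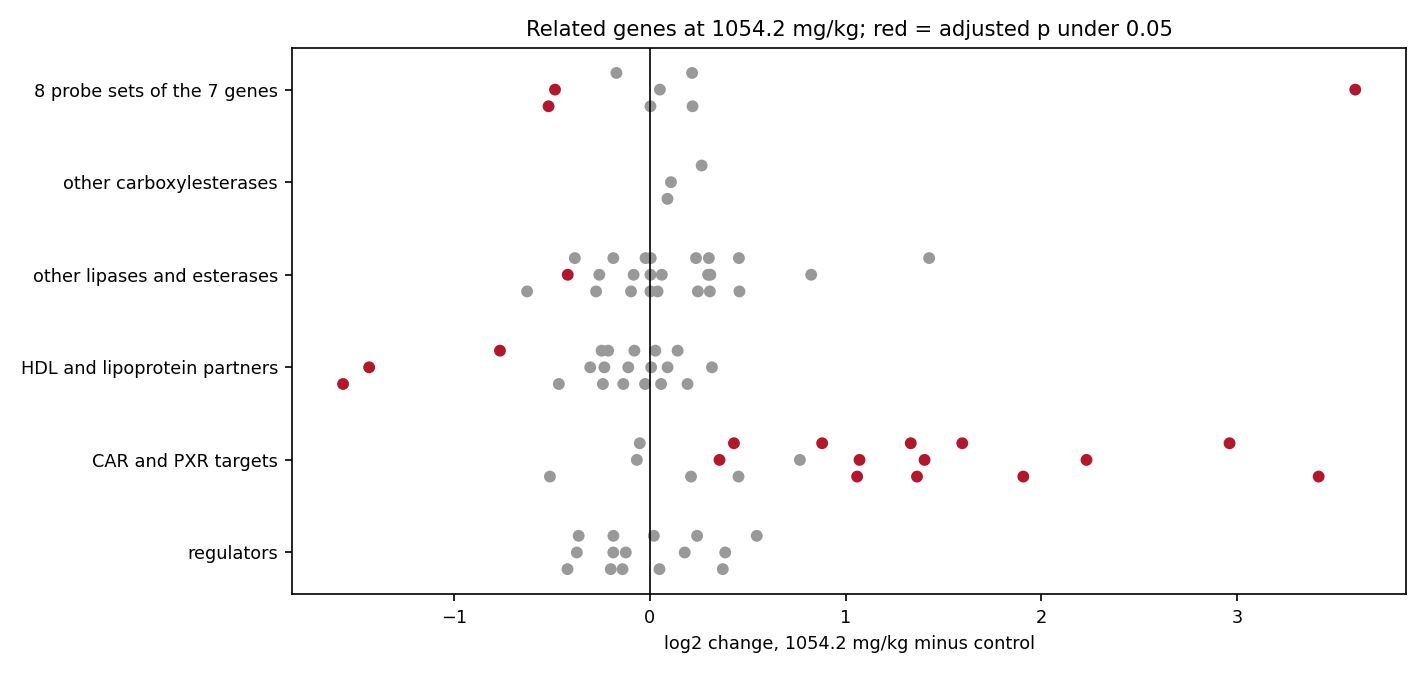
Log2 change at 1054.2 mg/kg minus control (horizontal axis) for each of the 8 probe sets and for each gene of the 5 related lists (rows, points spread vertically only to separate them), with points past the threshold in red. Ces2c at 3.60 and Abcc3 at 3.42 lie furthest to the right, and the 3 other carboxylesterases measured, none a Ces2 gene, lie between 0.09 and 0.26.

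In these whole-tissue samples fewer cells of a type and less RNA per cell cannot be told apart. All 11 hepatocyte markers measured, the albumin gene Alb among them, were brighter than the median of the array. In limma 0 of the 11 passed at 1054.2 mg/kg, with 1 at an unadjusted p under 0.05. Of all genes 4.83% passed at that dose in either direction and 19.4% had an unadjusted p under 0.05, the shares for every marker list here. The summed level of the hepatocyte markers was 17.86 to 17.88 log2 at that dose and 17.90 to 17.94 in controls. Beside the falls of Ces1d and Lipc at 1054.2 mg/kg, 6 of 8 Kupffer cell, 5 of 10 stellate cell and 2 of 7 endothelial markers fell. Their summed levels were 13.00 to 13.03 against 13.36 to 13.80 in controls, 12.01 to 12.19 against 12.51 to 12.88, and 12.22 to 12.55 against 12.56 to 12.97. At 132 mg/kg the Kupffer cell sum was 12.87 to 13.07, with 0 of 8 past the threshold and 7 at an unadjusted p under 0.05. At that dose Ces1d had changed by -0.01 and Lipc by -0.15, in a group that holds the array with the most degraded RNA, described below. At 263.6 mg/kg the stellate cell sum was 11.90 to 12.39 and the endothelial sum 12.33 to 12.41, with 0 of either list past the threshold. An unadjusted p under 0.05 was found there for 8 of 10 and 6 of 7, beside 14.4% of all genes. At 263.6 mg/kg Ces1d had changed by -0.19 and Lipc by -0.47. Of 6 cholangiocyte markers 1 rose at 1054.2 mg/kg, Epcam, with a mean of 9.88 against 9.23 in controls. The 6 summed to 10.23 to 10.49 at that dose, against 9.56 to 9.94 in controls. Sums were taken over linear intensities, so Epcam, the brightest of the 6, weighs most in them. The other 5 did not pass, and the median change of the 6 was 0.13. Of 7 pancreas markers 1 fell, Cela1, with a mean of 9.85 against 10.65. The 7 summed to 10.16 to 10.50, against 10.82 to 11.09, and Cela1, the brightest of them, weighs most in these sums. The other 6 did not pass, and the median change of the 7 was -0.11. Only 3 of the 6 cholangiocyte and 2 of the 7 pancreas markers were brighter than the median of the array. The part of these shifts in the results was not tested.

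The difference between 3′ and 5′ control probe sets, larger in more degraded RNA, was 1.55 to 1.75 log2 at 1054.2 mg/kg and 1.24 to 1.89 in controls. It reached 3.25 in 132 mg/kg replicate 2, which read lowest of its dose group for Ces2c, Ces1d, Lipc, Pon2 and Pon1 (1371050_at). That array read highest of its group for Pon3. The difference was 2.47 in 263.6 mg/kg replicate 2, which read lowest of its group for Ces2c, highest for Ces1d and middle for Lipc. Without these 2 arrays Ces2c had changed by 1.76 at 132 and 2.54 at 263.6 mg/kg and passed at both.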

How the data were processed

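Liver RNA of 20 rats was measured on 1 Affymetrix array each. The values the authors deposited are log2 intensities from RMA, per the submitters' processing notes. The sources used here give neither the RMA version nor the set of arrays normalised as one. Array medians lay between 6.32 and 6.41, and the number of arrays limits the precision. After leaving out 57 Affymetrix controls, 31042 probe sets were tested, of which 20826 carried exactly 1 symbol, 436 several and 9780 none. Groups came from the dose in the sample titles.

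A linear model with 1 mean per group was fitted to all 20 arrays in limma 3.58.1 (R 4.3.3; 14 residual and 5.75 prior degrees of freedom), with two-sided tests and Benjamini-Hochberg adjustment over all probe sets at 0.05. The code was tested on simulated data. The p-values rest on the spread between rats, and each change carries its SE from the fit. Alternatives were other scaling, filters, priors, covariates, a replicate block, an added 1.5-fold limit and arrays left out. The members, lists and the naming rule were chosen with earlier results of these data known. The rule took every member, from each list up to 6 genes with the largest change among those past the threshold at 1054.2 mg/kg (or the largest if none), and the 4 nearest patterns of each changed member. Other carboxylesterases, Ephx2, Nceh1, Lpl, Apoa1, Lcat and the receptor genes were named after their values were seen. So were the CAR and PXR targets that did not pass. Sequences are from RefSeq (GRCr8), where all 7 genes matched by Entrez identifier.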

Additional observations from a re-analysis of the deposited data

Results flagged for a closer look

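Among the controls, Pon1 (1371050_at) of replicate 1 read 13.97 log2, apart from the other 4 control rats at 13.74 to 13.80. Its gap to the nearest of them was 0.732 of the whole range of the group, above Dixon's critical value for 5 samples. It was the 1 such case among the 8 probe sets. Chance gives about 1 in 20 for each single test, and 8 were made, so 1 flag is not rare. Leaving out control replicate 1 did not bring Pon1 past the threshold at 1054.2 mg/kg.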

How the results depend on the processing

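Ces2c kept its direction and its side of the threshold at 132 mg/kg and above in all 10 alternatives and with any 1 array of the compared groups left out, its change at 1054.2 mg/kg lying between 3.40 and 3.78. No called change reversed. The count of the 8 probe sets past the threshold at 263.6 mg/kg was 2, with Lipc added, after quantile normalization again, without dim probe sets, with 1 probe set per gene, with only the groups compared in the fit, and with an intensity trend and robust prior (adjusted p of Lipc 0.0339 to 0.0427). At 66 mg/kg it was 1, Ces2c, with only the groups compared in the fit, and in both cases the cause was not tested. At 1054.2 mg/kg it was 1 when a change of at least 1.5-fold was also required, since Ces1d and Lipc changed by less. With 1 array left out the count was 1 to 3 at 1054.2 mg/kg, 0 to 1 for 1054.2 against 527.1 mg/kg and 2 to 4 for the trend. The trend of Ces1d missed the threshold when control replicate 1, control replicate 4, or replicate 2 or 3 at 1054.2 mg/kg was left out (adjusted p = 0.0567 to 0.0881). In their deviations from the group means, same-numbered arrays of different groups correlated over 0.1 in 15 of 45 pairs (r from -0.352 to 0.472). For 7 of 20 arrays the best match in another group had the same number. No chance level was set for these counts, so whether the numbers mark rats handled together was not tested. With the replicate number as a block 2 of 8 passed at 1054.2 mg/kg, Ces1d (adjusted p = 0.0516) and Rgn (0.104) no longer doing so, and 2 of 8 passed for the trend, again without Ces1d (adjusted p = 0.0692). Intensities carry no depth, and dim probe sets such as 1393941_at of Pon1 were left out of some alternatives.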
